A study of Mus musculus with 22 samples.

Results

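Tomm70a, Pitrm1 and Gdap1 are nuclear genes whose protein products work at or in mitochondria, and their transcripts were followed through every library of a mouse study of Tsc1 loss in cerebellar Purkinje cells (PCs). The 3 genes were picked by name as loci XLOC_023145, XLOC_014331 and XLOC_000114, out of 66494 loci in each of 2 expression tables. The choice rested on measured values: the study lists Tomm70a among genes whose ribosomal binding differed between mutant and control PCs, and lists all 3 among genes whose translation efficiency differed. Values from those comparisons are therefore given as descriptions, without a p-value, and where a gene or a count is set against the study's thresholds there, nothing is read from it. Both lists compare genotypes without rapamycin, and the difference between genotypes in the rapamycin-treated libraries is the one comparison for which p-values of the 3 genes are given, although results from all libraries were known when the genes were chosen.

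Mutant animals carried Tsc1 fl/fl, with loxP sites around a pair of Tsc1 exons, and L7Cre, a Cre driven by the PC-specific L7 (Pcp2) promoter. Control animals were Tsc1 +/+. According to the methods the controls carried L7Cre as well, although the study's description of the sorted animals gives Tsc1 +/+ L7GFP. The labels use CC for mutant and WW for control and give C57BL/6 as the strain background of all animals. Total RNA was sequenced from PCs that carried L7GFP and were sorted as living GFP-positive cells from cerebella of 2 postnatal ages, which the labels do not assign to libraries (5 mutant and 5 control libraries). Control libraries 144a and 144b bear one animal number, so they may not be independent. Ribosome-bound RNA was isolated by translating ribosome affinity purification (TRAP) from animals with Rosa26fsTRAP, in which Cre switches on the EGFP-tagged ribosomal protein RPL10A. TRAP libraries numbered 3 of each genotype without and 3 of each with rapamycin, an inhibitor of the kinase mTOR. The dose and schedule of rapamycin were not given in the sources used here. The replicates are separate libraries, and beyond these numbers the labels do not say which came from separate animals, so their spread may be partly technical.

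Most mitochondrial proteins are made in the cytosol and imported. TOMM70, the product of Tomm70a, is a receptor of the outer membrane that takes in precursors such as the metabolite carriers. PITRM1, the presequence protease of the matrix, degrades targeting peptides once they have been cut from imported proteins. GDAP1 is an outer membrane protein with a role in mitochondrial shape and division, and mutations in its human counterpart cause Charcot-Marie-Tooth neuropathy. TSC1 restrains mTOR complex 1, a driver of protein synthesis, and PCs are large neurons with a high demand for energy.

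Tomm70a lies at chr16:57121703-57156705 on the plus strand of GRCm38 (GENCODE M21) and its reference transcript ENSMUST00000166897 has 12 exons and 5964 bases. Pitrm1 lies at chr13:6548149-6580515 on the plus strand, with 27 exons and 3906 bases in ENSMUST00000222485. Gdap1 lies at chr1:17145362-17164271 on the plus strand, with 6 exons and 3949 bases in ENSMUST00000026879. The assembled loci of Tomm70a and Gdap1 have the class code "=", a complete match to the reference transcript. The code of Pitrm1 is "j", which marks an assembled transcript that shares splice junctions with the reference but not all of them, so its value may include a variant structure. The 3′ end of Pitrm1 overlaps Pfkp on the other strand by 748 bases, and that of Tomm70a overlaps Nit2 on the other strand by 41 bases. Whether counting used strand was not given in the sources used here, so reads in these overlaps cannot be assigned with certainty.

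The translation of some mRNAs is known to follow mTOR activity through a 5′ terminal oligopyrimidine (5′ TOP) motif, a C followed by a run of pyrimidines at the very first bases of the transcript. For this reason the 30 bases around the annotated start are shown for the genes with an entry in the RefSeq promoter table (GRCm38), which held Tomm70a and Pitrm1 but not Gdap1. The bases shown are on the plus strand, at chr16:57121699-57121728 for Tomm70a and chr13:6548142-6548171 for Pitrm1. Capitals mark the first 5 bases from the RefSeq starts, 57121714 and 6548157. The GENCODE genes start upstream of these, at 57121703 and 6548149, so the first transcribed base is not settled by the annotation.
Tomm70a: ccccgggcttccggtGACCTctggcccttt
Pitrm1: gtcccacactggcccCACGCtggtcacatg
Both starts held 3 pyrimidines (C or T) among these 5 bases. The Pitrm1 start opens with C and the Tomm70a start with G, and neither has the C followed by 4 pyrimidines that was searched for on the transcribed strand. That pattern was found at 2.51% of the 32851 annotated starts in the table. A start with no match says only that these letters are not at the annotated position.

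Values are normalised fragments, that is, estimated fragments divided by one size factor per library. Sorted libraries held 43.3 to 86.3 M fragments and TRAP libraries 2.47 to 6.38 M, so that 1 fragment was worth 0.303 to 1.96 in TRAP. The control TRAP libraries were the deeper ones, with 4.28 to 6.38 M fragments against 2.47 to 3.41 M in the mutants. The mutant TRAP library 3 stood apart, with 40.5% of its signal in its 10 highest loci against 58.3% to 72.6% in the other 11 libraries. Of 14 PC markers 12 could be paired with a locus, and all 12 were above 0 in every library. In the sorted libraries this held also for the paired markers of astroglia, microglia and vessels, and in mutants 103, 61 and 74 the 3 astroglial markers summed to more (268430 to 342706) than the 12 PC markers (53804 to 119569). A value of exactly 0 in these tables does not by itself show that a transcript was absent, since the quantification may have failed at that locus.

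In sorted PCs, Tomm70a and Pitrm1 had much the same level in both genotypes. Tomm70a stood at 5160, 6336, 5758, 8409 and 6866 normalised fragments in control libraries 144a, 144b, 176, 45 and 48. It stood at 5089, 7190, 6730, 5712 and 6128 in mutant libraries 103, 167, 191, 61 and 74. The mutant values fell within the control range apart from library 103, just below it. The difference (mutant minus control) was -0.07 ± 0.17 on the log2(value + 1) scale (SE, n = 5 and 5), far smaller than the spread between libraries. Within submission MS3005, the only sequencing submission that held both genotypes (n = 2 and 2), the Tomm70a difference had the other sign, 0.35 ± 0.23. The remaining mutants were all in submission MS2723 and the remaining controls all in MS2872, so submission and genotype cannot be told apart outside MS3005.

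Pitrm1 stood at 3455, 3413, 2977, 2892 and 2625 normalised fragments in the same order of control libraries. It stood at 2723, 3116, 2962, 2853 and 2399 in the mutant libraries. The 2 groups overlapped over most of their range, and the difference was -0.13 ± 0.14 (SE) on the log2 scale. Within MS3005 it was -0.08 ± 0.23.

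Gdap1 was the member whose level in sorted PCs varied most. It stood at 1817, 2238, 2883, 6376 and 4995 normalised fragments in control libraries 144a, 144b, 176, 45 and 48. It stood at 430, 2484, 1964, 1803 and 1927 in mutant libraries 103, 167, 191, 61 and 74. Controls 45 and 48 lay above all other libraries, mutant 103 lay far below all others, and the remaining 7 libraries of both genotypes were between 1803 and 2883. The difference was -1.14 ± 0.52 (SE, n = 5 and 5) on the log2 scale, and -0.69 ± 0.37 without mutant library 103. Within MS3005 it was -0.051 ± 0.34. None of the 3 genes passed the study's thresholds (fold change over 2 at an unadjusted p below 0.01) in this comparison, which 242 of 16455 loci (1.47%) did in either direction.

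**Figure D1:**
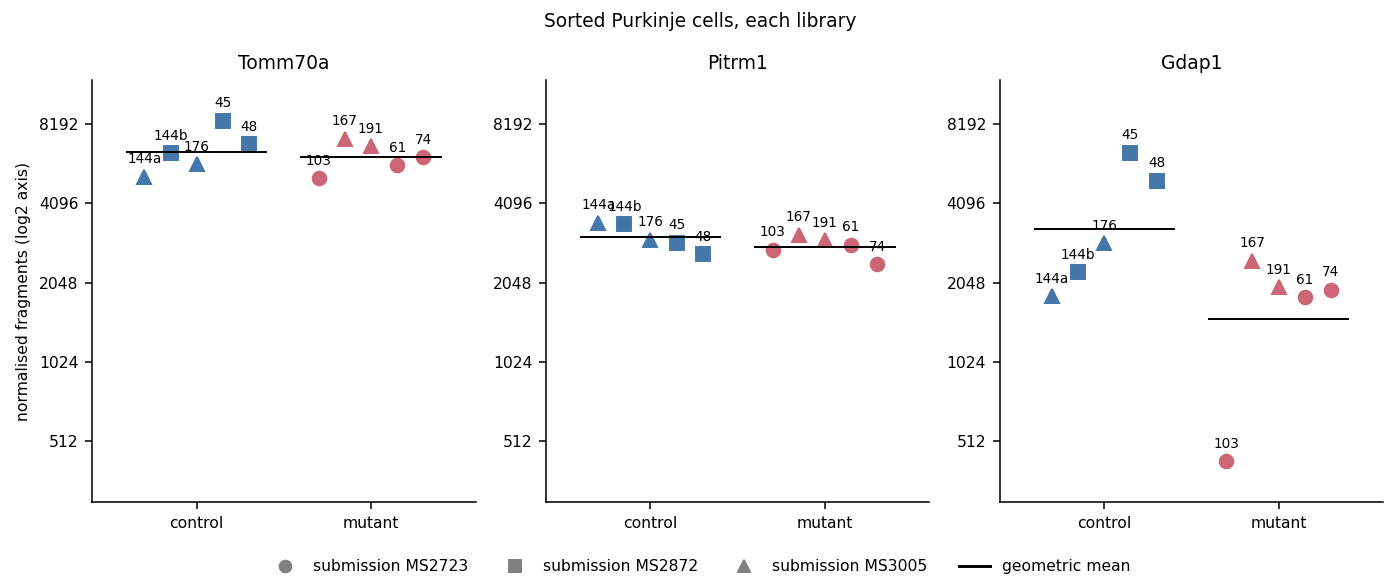
Normalised fragments (log2 axis) of Tomm70a, Pitrm1 and Gdap1 in each sorted library, with the library number above each point, the sequencing submission as its shape and the geometric mean of each genotype as a line. Tomm70a and Pitrm1 overlap between genotypes, whereas Gdap1 runs from 430 in mutant library 103 to 6376 in control library 45.

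Library 103 was also the lowest of the 10 in PC markers. The summed value of the 12 markers was 53804 in mutant 103, 74411 in mutant 61 and 119569 in mutant 74, the 3 libraries of MS2723. It was 304124 and 332499 in mutants 191 and 167, and 278653 to 532435 in the controls. Gdap1 was at 1803 and 1927 in mutants 61 and 74. In controls 144a, 48 and 45, with marker sums of 494576, 423504 and 532435, it was at 1817, 4995 and 6376. The 3 astroglial markers that could be paired (Gfap, Apoe and Tnc, of 8 listed) summed to 303953 in library 103 and to 216535 to 342706 in the other mutants, against 116380 to 286336 in controls. These markers, too, could be paired only through the study's own lists, which were drawn from differences between genotypes. The part of these markers in the Gdap1 values was not tested. In bulk samples, fewer cells of a type and less RNA per cell cannot be told apart.

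**Figure D2:**
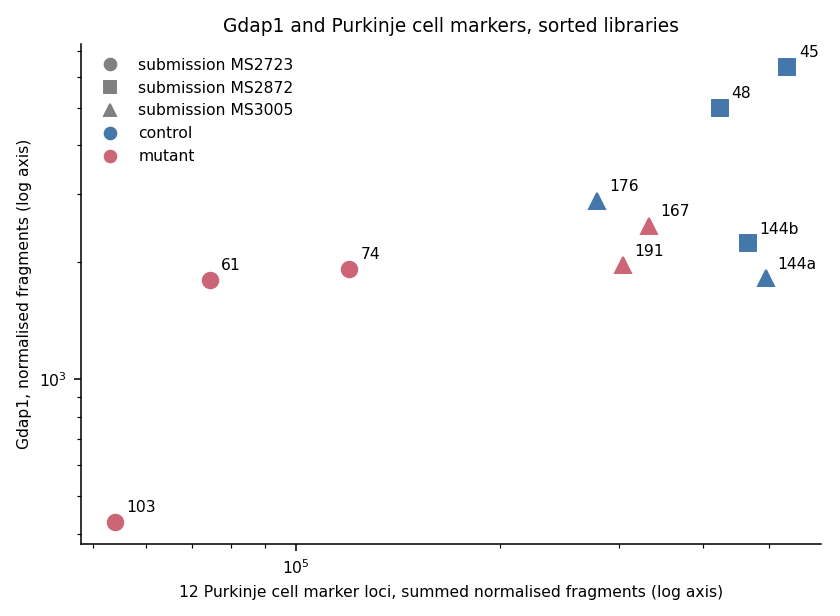
Gdap1 (normalised fragments, log axis) against the summed value of 12 PC marker loci (log axis) in the 10 sorted libraries, coloured by genotype and shaped by sequencing submission. Mutant library 103 is lowest on both axes, at 430 and 53804. Mutants 61 and 74 are next lowest in markers, with Gdap1 at 1803 and 1927. Controls run from 1817 to 6376 in Gdap1 and from 278653 to 532435 in markers.

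In TRAP without rapamycin, every mutant library lay above every control library for all 3 genes, as was the case for 826 of 9658 loci (8.55%). This contrast entered the choice of the genes, so nothing is read from that count. Likewise, Tomm70a lay past the study's thresholds in the direction of the mutants, as it was listed, together with 91 of 9658 loci (0.942%) in all.

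Tomm70a was listed at 0 in all 3 control TRAP libraries. In mutant libraries 1, 2 and 3 it stood at 47.1, 79.8 and 84.1 normalised fragments, which correspond to 24, 53 and 277 fragments. At the depth of the control libraries the mutant mean of 70.3 would have amounted to 82.6, 112 and 126 fragments. The fitted difference was 6.11 ± 0.37 (SE, n = 3 and 3) on the log2(value + 1) scale, but with one group at 0 its size depends on the pseudocount, and no fold is given.

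Pitrm1 stood at 22.1, 18.2 and 12.2 normalised fragments in control libraries 1, 2 and 3 and at 36.4, 36.1 and 29.9 in the mutants. The 2 groups did not overlap, and each value rests on 18.5 to 98.6 fragments. The difference was 0.96 ± 0.36 (SE) on the log2 scale, and 1.05 ± 0.45 without mutant library 3.

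Gdap1 stood at 30.6, 42.0 and 34.0 normalised fragments in control libraries 1, 2 and 3 and at 49.0, 70.8 and 63.1 in the mutants. The groups did not overlap, and the difference was 0.76 ± 0.34 (SE), or 0.73 ± 0.43 without mutant library 3. These values rest on 25 to 208 fragments per mutant library. The median difference over all loci tested was 0.07, and with libraries scaled to equal totals it was 0.47, with 1.35 ± 1.11 for Pitrm1 and 1.16 ± 1.11 for Gdap1 (SE). That scaling also turned the split of loci past the thresholds from 91 higher and 98 lower in mutants to 90 higher and 5 lower.

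Paired markers of other cells differed between the same untreated TRAP libraries. The lists that give these markers their names were themselves drawn from differences between such libraries, so nothing is read from that difference. The 3 astroglial markers summed to 358 to 488 normalised fragments in mutants and to 60.7 to 162 in controls. Csf1r, the one microglial marker of 5 that could be paired, stood at 9.93 to 15.7 in mutants and at no more than 5.11 in controls. The vascular marker Flt1, 1 of 3 listed, was at 0 in all control TRAP libraries and reached at most 7.53 in mutants. The summed PC markers were 8642 to 9268 in mutants and 10033 to 11454 in controls. The part of these cells in the TRAP values of the 3 genes was not tested.

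With rapamycin, Pitrm1 was the member with the widest gap between genotypes. It was listed at 0 in all 3 control libraries and stood at 30.8, 37.7 and 29.5 normalised fragments in mutant libraries 1, 2 and 3. The mean of the untreated controls, 17.5, would have amounted to 18.3, 19.8 and 28.5 fragments in the 3 rapamycin-treated control libraries. The difference between genotypes was 5.07 ± 0.49 (SE, n = 3 and 3) on the log2(value + 1) scale, with an unadjusted p of 2.65e-05 and a Benjamini-Hochberg adjusted p of 0.0616 (limma, two-sided). Because the controls were all at 0 and had no spread, Pitrm1 entered the test through the mutant libraries alone. Its p-values, under every setting, rest on zeros that may be failed estimates. The test therefore cannot decide whether the genotypes differed. Pitrm1 lay past the study's thresholds, as did 84 of 8728 loci (0.962%) in the direction of the mutants. It did not pass an adjusted p of 0.05, which 1 locus (0.0115%) did in either direction, whereas 480 loci had an unadjusted p under 0.05. Over 12 alternative settings the adjusted p of Pitrm1 ran from 0.000202 to 0.917, and it was under 0.05 in 2 of them, a joint fit of the 4 TRAP groups (0.000202) and no filter on low values (0.00923). The fitted size again depends on the pseudocount because the controls were at 0.

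Tomm70a stood at 0, 34.5 and 0 normalised fragments in rapamycin-treated control libraries 1, 2 and 3 and at 54.3, 51.2 and 33.2 in the mutants. The groups overlapped, since control library 2 (34.5, from 39 fragments) was above mutant library 3 (33.2, from 18 fragments). That gap was less than the worth of 1 fragment in mutant library 3, which was 1.85. The difference was 3.81 ± 1.43 (SE) with an adjusted p of 0.868 in limma. The mean of the controls was below the filter, so that Tomm70a too entered the test through the mutants, and nothing is read from its p-values. Over 14 alternative settings the adjusted p ran from 0.0848 to 0.992, and the lowest value came from leaving out control library 2, after which only controls at 0 remained.

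Gdap1 stood at 10.5, 34.5 and 31.4 normalised fragments in rapamycin-treated control libraries 1, 2 and 3 and at 52.5, 55.3 and 35.1 in the mutants. The lowest mutant library exceeded the highest control library by less than the worth of 1 fragment. The difference was 1.01 ± 0.65 (SE) with an adjusted p of 0.873 in limma, and 0.49 ± 0.50 without control library 1. Over 14 alternative settings the adjusted p ran from 0.423 to 0.992. Every mutant library was above every control library for Pitrm1 and Gdap1, as was the case for 643 of 8728 loci (7.37%). Nothing is read from that count, since Pitrm1 was at 0 in the controls and Gdap1 differed by less than 1 fragment. The median difference over all loci was 0.32 in these libraries, so that relative to all loci the differences of Tomm70a, Pitrm1 and Gdap1 were 3.50, 4.75 and 0.69. With libraries scaled to equal totals the median was -0.10, and the split of loci past the thresholds went from 84 higher and 23 lower in mutants to 41 higher and 51 lower, while the differences of the 3 genes stayed positive at 3.51 ± 1.47, 4.80 ± 0.53 and 0.60 ± 0.75 (SE). The astroglial markers, at 54.3 to 155 in treated mutants and 49.5 to 117 in treated controls, overlapped between these genotypes, and Csf1r reached 40.0 in treated controls and 9.93 in treated mutants.

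**Figure D3:**
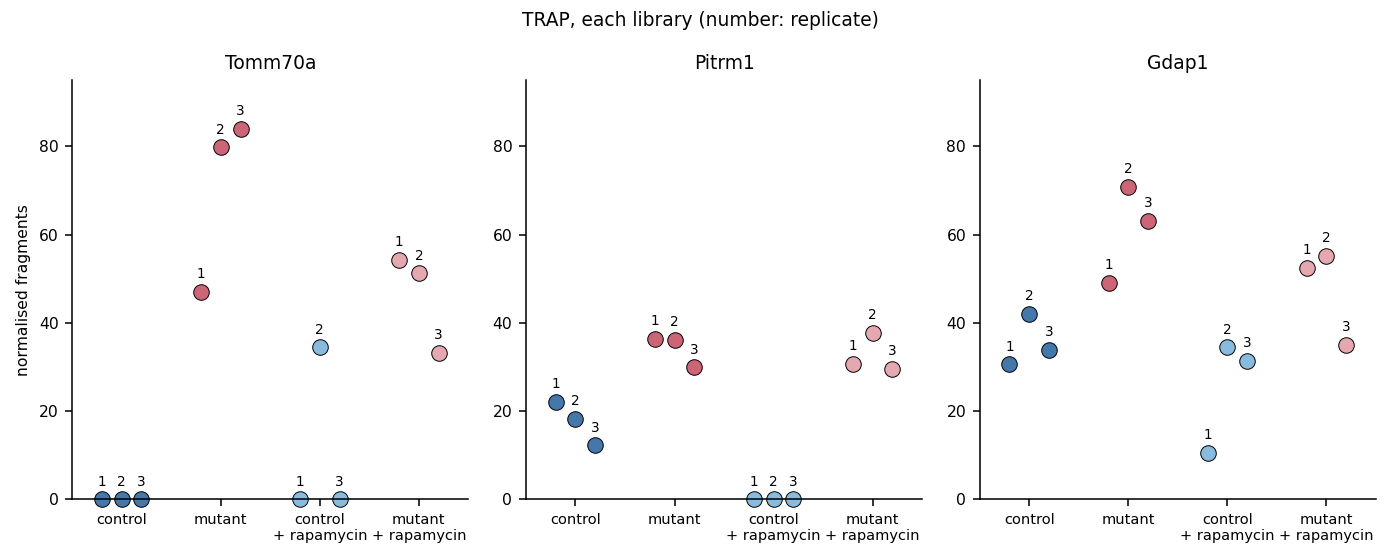
Normalised fragments of Tomm70a, Pitrm1 and Gdap1 in each of the 12 TRAP libraries (linear axis), by genotype and rapamycin, with the replicate number above each point. Tomm70a is at 0 in 5 control libraries and Pitrm1 in the 3 rapamycin-treated control libraries, while all mutant libraries lie between 29.5 and 84.1.

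Rapamycin-treated libraries were also set against the untreated libraries of the same genotype. The difference (rapamycin minus none) in mutants was -0.58 ± 0.39 for Tomm70a, -0.06 ± 0.30 for Pitrm1 and -0.36 ± 0.35 for Gdap1 (SE, n = 3 and 3, log2 scale). None of these lay past the study's thresholds, which 169 of 9664 loci (1.75%) did in either direction. With all libraries scaled to equal totals the differences were -1.36, -0.83 and -1.14, each with an SE of 1.08, and the median over all loci moved from -0.04 to -0.81. In controls, Pitrm1 went from 12.2 to 22.1 normalised fragments without rapamycin to 0 in every treated library, a fitted difference of -4.17 ± 0.54 that depends on the pseudocount. It lay past the thresholds downward, as did 74 of 8682 loci (0.852%), on controls listed at 0. The difference for Gdap1 in controls was -0.62 ± 0.65, and -0.10 ± 0.51 without treated control library 1. Tomm70a was too low in the controls to pass the minimum mean of 2 on the log2 scale. These contrasts share the untreated libraries with the comparison that chose the genes, so their values and counts are descriptions.

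**Figure D4:**
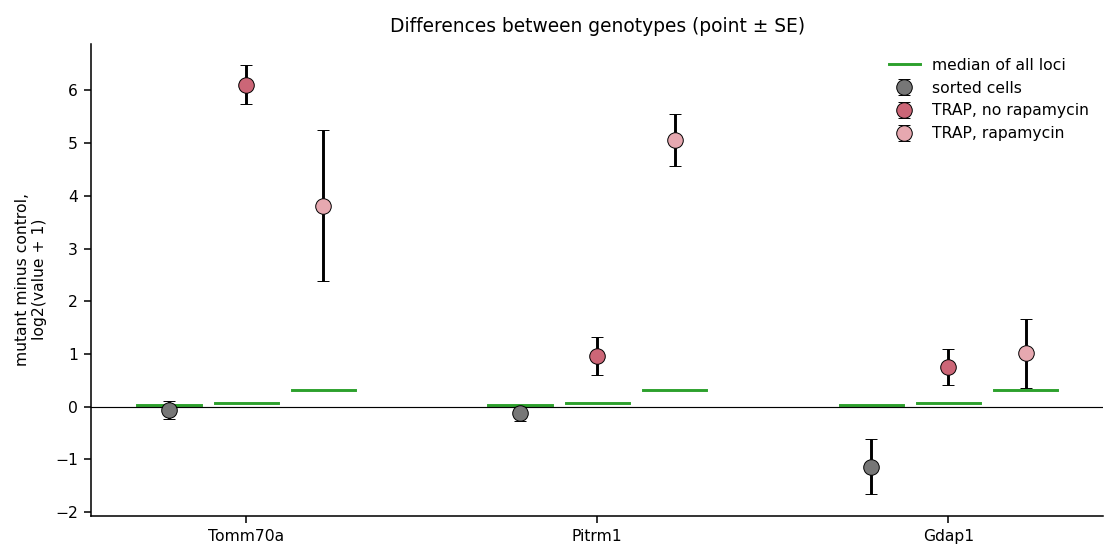
Difference between mutant and control libraries on the log2(value + 1) scale (point, with SE as the bar) for each gene in sorted PCs, TRAP without rapamycin and TRAP with rapamycin, with the median over all loci as a green line. Sorted differences are below 0 and TRAP differences above 0, and the points for Tomm70a in TRAP and Pitrm1 under rapamycin rest on control libraries listed at 0.

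The zeros of Tomm70a went together with those of a neighbouring locus. Downstream of Tomm70a lies Tbc1d23, at chr16:57168862-57231504 on the minus strand, a gene for a protein of the trans-Golgi network. The locus XLOC_023790, whose class code "o" marks an overlap with Tbc1d23 exons without shared structure, was at 0 in the same 5 TRAP libraries as Tomm70a and above 0 in the same 7. In those 7 libraries it took 5.30% to 11.95% of all signal, with 150493 to 511921 fragments. The highest share was in rapamycin-treated control library 2, the one control library in which Tomm70a was above 0. In sorted PCs the same locus was never at 0 and took 0.128% to 0.414% of a library.

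Of 1539 loci that reached at least 33.2 normalised fragments, the lowest non-zero Tomm70a value, in each of those 7 libraries, 30 were at 0 in at least 1 of the other 5 libraries. Only 2 of them (0.130%) were at 0 in all 5, Tomm70a, which meets this minimum by its choice, and the locus overlapping Tbc1d23. Without the minimum, 3 loci, Tomm70a included, were at 0 in these 5 libraries and above 0 in the 7. Other named genes within 200 kb of Tomm70a were low in TRAP. Cmss1 (XLOC_023794) was at 0 in these 5 libraries and in mutant library 2 with rapamycin, at 22.1 in the treated control library 2 and at 3.62 to 6.02 in the other mutant libraries. A second locus of Tbc1d23, XLOC_023792 with class code "j", was at 0 in all 6 control libraries and at 5.43 to 21.6 in the 6 mutant libraries. Filip1l and Lnp1 were at 0 in every control TRAP library and reached at most 1.85 in the mutants. The part of the neighbouring locus in the Tomm70a values was not tested.

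**Figure D5:**
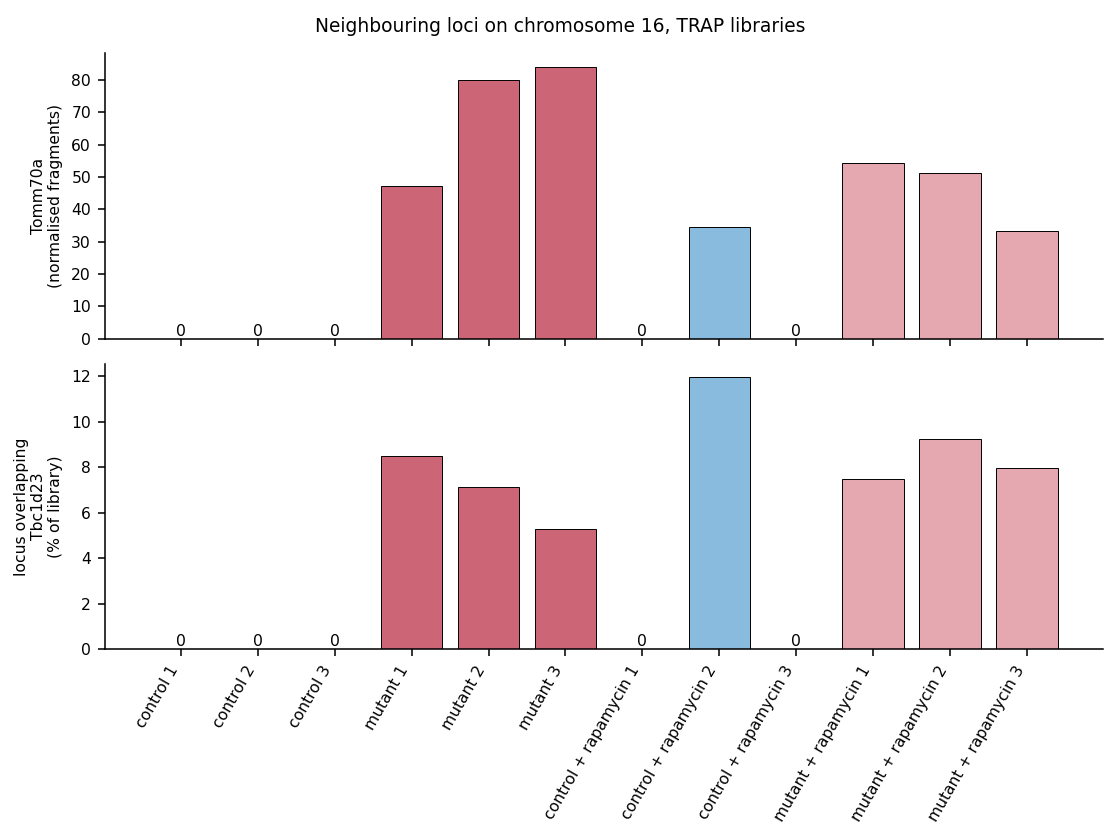
Tomm70a (normalised fragments, upper bars) and the locus overlapping Tbc1d23 (percent of all signal in the library, lower bars) in the 12 TRAP libraries, with 0 written where a library is at 0. Both loci are at 0 in the same 5 control libraries, and the 7 libraries with a value hold 33.2 to 84.1 and 5.30% to 11.95%.

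The zeros of Pitrm1 fell in another set of libraries. Of 3418 loci that reached at least 12.2 normalised fragments, the lowest non-zero Pitrm1 value, in each of the other 9 TRAP libraries, 358 were at 0 in at least 1 of the 3 rapamycin-treated control libraries. Pitrm1, which meets this minimum by its choice, and the unnamed locus XLOC_056294 (0.0585%) were at 0 in all 3. Without the minimum, 154 loci, Pitrm1 included, were at 0 in these 3 libraries and above 0 in the other 9. No gene within 200 kb of Pitrm1 or of Gdap1 could be paired with a locus, so that neighbours could not be compared there. Gdap1 was above 0 in all 12 TRAP libraries.

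The change in translation efficiency (ΔTE) is the TRAP difference between genotypes less the sorted difference. It was 6.18 for Tomm70a, 1.08 for Pitrm1 and 1.89 for Gdap1, with an SD of 0.22, 0.19 and 0.35 over 100 recalculations that each left out 1 library of every group. The Z-scores were 27.7, 5.83 and 5.34. ΔTE chose these genes, so the values are a description, and a Z-score above 4 with higher translation efficiency in mutants was found for 616 of 9374 loci (6.57%). Its parts differed between the genes. For Tomm70a and Pitrm1 nearly all of ΔTE came from the TRAP difference. For Gdap1 the sorted difference of -1.14 gave the larger part, and with only MS3005 in the sorted term its ΔTE was 0.81. The ΔTE of Tomm70a carries the dependence on the pseudocount of its TRAP difference.

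Levels can be compared between the genes per kilobase of reference transcript. In sorted control PCs the mean levels were 1091 normalised fragments per kb for Tomm70a, 927 for Gdap1 and 787 for Pitrm1. The ranges of 865 to 1410, 460 to 1615 and 672 to 884 overlapped between every pair of neighbours. In mutants Tomm70a (853 to 1206) lay above Pitrm1 (614 to 798) in every library. Pitrm1 also lay above Gdap1 (109 to 629) within every mutant library, although their ranges overlapped. The order in TRAP was another one. In untreated mutants Gdap1 led with 15.4 per kb (12.4 to 17.9), followed by Tomm70a with 11.8 (7.89 to 14.1) and Pitrm1 with 8.74 (7.66 to 9.31). The ranges of both pairs of neighbours overlapped. Within each of these libraries Gdap1 lay above Tomm70a, whereas Pitrm1 lay above Tomm70a in library 1 only. In untreated controls Gdap1 with 9.00 per kb (7.76 to 10.6) lay above Pitrm1 with 4.49 (3.14 to 5.67) in every library, and Tomm70a was at 0.

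Few other genes of the same pathways carry a name in these data, because only genes in the study's own lists are paired with a locus. Of 37 protein import genes 2 could be paired, Tomm70a and Timm8b, a small chaperone of the intermembrane space. Of 16 genes for presequence processing and mitochondrial proteases 2 could be paired, Pitrm1 and Parl, a rhomboid protease of the inner membrane. Of 21 genes for fission, fusion and transport 3 could be paired: Gdap1, its paralogue Gdap1l1, and Trak1, an adaptor that links mitochondria to motor proteins. The lists are thus far too thin to describe a pathway.

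In sorted PCs the differences (mutant minus control) of these other genes were -0.24 ± 0.29 for Timm8b, -0.08 ± 0.17 for Parl, -0.54 ± 0.35 for Gdap1l1 and -0.55 ± 0.18 for Trak1 (SE, log2 scale). In TRAP without rapamycin they were 0.77 ± 0.32, 1.02 ± 0.36, 0.65 ± 0.40 and 0.43 ± 0.32. The lists that give these genes their names were themselves drawn from differences between such libraries. In TRAP with rapamycin they were -0.17 ± 0.76, 0.33 ± 1.33, -0.09 ± 0.56 and 0.26 ± 0.57, and none of the 4 passed an adjusted p of 0.05 in limma (0.941 to 0.981). Gdap1l1, the closest relative of Gdap1, ranged from 43.1 to 87.5 normalised fragments in treated controls and from 43.4 to 67.4 in treated mutants, so that its groups overlapped.

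The genes whose pattern was most like each member were sought among named genes past the filters, by Pearson's r of log2(value + 1) across libraries, as a description. Over the 12 TRAP libraries, Tomm70a was most like the locus overlapping Tbc1d23 (r = 0.979), Myo1e (0.947) and a locus named after Rbpms2 (0.894). The class code "x" of the last marks an overlap with Rbpms2 exons on the other strand. Pitrm1 was most like a locus overlapping Pcdhb16 with class code "o" (0.920), Pptc7 (0.914) and Khdc3 (0.911). Gdap1 was most like Ybx3 (0.930), Mex3c (0.922) and Clip4 (0.901). The TRAP points share libraries of different depth, and 5 of the 12 points of Tomm70a and 3 of those of Pitrm1 are at 0.

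Over the 10 sorted libraries, Gdap1 was most like the neuronal genes Snap91 (0.974), which acts in synaptic vesicle recycling, Kif5c (0.965), a kinesin heavy chain, and Diras1 (0.958). Tomm70a was most like Suv39h1 (0.856), Pgam5 (0.853), a mitochondrial phosphatase, and Snx10 (0.851). Pitrm1 was most like Mapkapk2 (0.908), Dusp1 (0.890) and Aqp11 (0.870). Among the members themselves r in sorted PCs was 0.769 between Tomm70a and Gdap1, -0.09 between Tomm70a and Pitrm1, and 0.040 between Pitrm1 and Gdap1. These sorted points share submissions that go with genotype outside MS3005, and libraries 144a and 144b share an animal number. The range of Gdap1 rests on mutant 103 and controls 45 and 48. Only genes named in the study's own lists were compared.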

How the data were processed

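Per the labels and the study's methods, paired-end reads were trimmed (Trimmomatic 0.39), mapped to GRCm38 (STAR 2.7.0f) and quantified on a transcriptome assembled from the sorted cells (Cufflinks 2.2.1). Each table the authors deposited holds a signal per locus, that is, estimated fragments divided by one size factor per library. Of low values, 83.2% to 95.6% per library were whole multiples of 1 fragment (tolerance 0.01), so a count test was not used. Values were analysed as log2(value + 1) with limma 3.58.1 (lmFit, eBayes) in R 4.3.3, on loci whose mean log2 value over the libraries compared reached 5 for sorted and 2 for TRAP data, with only the groups compared and Benjamini-Hochberg adjustment over all loci. The study gives 4 animals per genotype for the sorted cells, and 5 for its plot of read coverage. The labels list 5 libraries per genotype, all of which were used. Gene names came from the supplementary files (1832 of 66494 loci), and the authors' own fold changes and p-values there were not used. The members and the gene lists were chosen with earlier results of these data known. Genes named are the members, paired genes of the pathway lists, named genes within 200 kb, the 3 most alike named genes per member and table, and cell type markers. Markers of granule cells, oligodendrocytes and interneurons could not be paired. Of the microglial markers Csf1r and of the vascular ones Flt1 could be paired. Alternatives were other pseudocounts, scalings and filters, an intensity trend, submission, 144a and 144b averaged, a replicate block, all TRAP groups in 1 fit, and each library left out. Scripts were tested on simulated data.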

Additional observations from a re-analysis of the deposited data

Results flagged for a closer look

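Gdap1 in mutant sorted library 103 lay far from the other 4 mutant libraries, at 8.75 on the log2(value + 1) scale, a gap of 0.817 of the whole range of its group, which is above the 95% critical value of Dixon's test. It was the only one of 6 groups looked at in this way that was singled out, and chance singles out about 1 group in 20. The PC marker sum of that library was also the lowest, and its part was not tested.

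For Gdap1, all 5 mutant libraries lay below the control mean in sorted PCs and all 3 mutant libraries lay above the control mean in TRAP without rapamycin, and the 2 differences were 1.89 apart on the log2 scale. This difference was not tested, since it is the measure on which the gene was chosen. Within MS3005 the sorted mutants were at 2484 and 1964 and the controls at 1817 and 2883, so that the opposition was not seen there.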

How the results depend on the processing

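Of 161 values recomputed under other settings, 118 stayed on their side of the threshold or moved by less than a limit. The limit was the spread between replicates, for ΔTE the SD over recalculations, and for counts a change of up to 1.5 times. Of the others, 39 moved further, 2 moved further with a change of sign and 2 passed a threshold that they had not passed. Of 184 recomputed with 1 library left out, 158 stayed within these limits and 26 moved further. Part of this was fixed in advance, so the tallies do not measure stability. The replicate block and the joint TRAP fit cannot move a TRAP difference, nor can leaving out a library of a group all at 0. Submission as a term and MS3005 alone gave the same sorted differences for the genes, yet count separately. Values near 0 changed sign within the spread, namely Tomm70a in sorted PCs with quantile normalization (0.013) and without control 45 (0.03), and Pitrm1 in mutants (rapamycin minus none) without treated replicate 3 (0.00245). The cause was not tested where a value depended on the setting. Submission as a term, or submission MS3005 alone, gave 0.35 for Tomm70a (the sign turned) and -0.051 for Gdap1 in sorted PCs, a ΔTE of 5.76 for Tomm70a and 0.81 for Gdap1, and 33 (term) or 100 (MS3005) loci past the thresholds in place of 242, 1 of them past an adjusted p of 0.05 in MS3005. A pseudocount of 10 gave 2.97 for Tomm70a in TRAP, -1.44 for Pitrm1 in controls (rapamycin minus none), and a ΔTE of 3.04 for Tomm70a and 0.82 for Pitrm1. A pseudocount of 0.1 gave a ΔTE of 9.48 for Tomm70a. Equal totals gave 6.61, 1.35 and 1.16 for Tomm70a, Pitrm1 and Gdap1 in TRAP, -1.36, -0.83 and -1.14 in mutants (rapamycin minus none), and a ΔTE of 6.63 for Tomm70a and 1.43 for Pitrm1. The Pitrm1 difference under rapamycin, 5.07, passed an adjusted p of 0.05 in limma with no filter (0.00923) and when the 4 TRAP groups were fitted jointly (0.000202). Both rest on treated control libraries listed at 0, so nothing is read from them.

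In TRAP without rapamycin 189 loci passed the thresholds, 441 with no filter, 95 with equal totals and 52 with all 4 groups. An adjusted p of 0.05 was passed by 7 loci, by 74 with a pseudocount of 10, 2 with 0.1, 16 with equal totals, 68 with an intensity trend and 1 with all 4 groups. Under rapamycin 107 loci passed the thresholds, 535 with no filter, 24 with a pseudocount of 0.1 and 435 with all 4 groups, and the adjusted p was passed by 129 with no filter and 135 with all 4 groups in place of 1. In sorted PCs no filter gave 702 loci, 9 of them past the adjusted p, against none in the limma fit with the filter, where 1861 had an unadjusted p under 0.05. Samples with the same replicate number did not deviate together (12 pairs, correlations from -0.065 to 0.044). With the replicate block, 3 loci passed the adjusted p in TRAP, 64 passed the thresholds under rapamycin, and the adjusted p of all 3 genes there was 0.917 in limma.

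With each library left out in turn, the sorted differences ran from -0.15 to 0.03 for Tomm70a, -0.18 to -0.07 for Pitrm1 and -1.35 to -0.69 for Gdap1. In TRAP they ran from 5.96 to 6.37, 0.73 to 1.13 and 0.64 to 0.90, and under rapamycin from 2.96 to 5.53, 5.07 to 5.13 and 0.49 to 1.30. For rapamycin minus none they ran from -0.91 to -0.10 for Gdap1 in controls, and from -0.84 to -0.36, -0.17 to 0.00245 and -0.51 to -0.16 in mutants. For Pitrm1 in controls only 3 fits gave a value, -4.17 each time. Each of them left out a treated control library at 0, which cannot move the difference, so its stability was not shown. ΔTE ran from 6.03 to 6.44, 0.86 to 1.26 and 1.45 to 2.11. Loci past the thresholds numbered 104 to 530 in sorted PCs (0 past the adjusted p), 98 to 354 in TRAP (2 to 20) and 36 to 430 under rapamycin (1 to 2). Tomm70a in controls (rapamycin minus none), and Pitrm1 with a pseudocount of 0.1 under rapamycin or without mutant replicate 2 there, gave no value, since their mean was below the filter. The same held for Tomm70a in TRAP without rapamycin with a pseudocount of 0.1. It also held for Pitrm1 in controls (rapamycin minus none) with that pseudocount or without any of the untreated control libraries. The depth of TRAP, at which 1 fragment was worth up to 1.96, limits values near 0.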
